A study of Mus musculus with 9 samples.

Results

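The mRNAs described here encode the proteins of the cytoplasmic ribosome. They were taken by symbol as protein-coding genes named *Rpl* or *Rps* and a number, together with *Rplp0*, *Rplp1*, *Rplp2* and *Rpsa*, with the S6 kinases, *Rps19bp1*, pseudogenes and the mitochondrial *Mrpl* and *Mrps* genes left out. The rule found 88 of the 21250 protein-coding genes with a row in the count table, 54 of the large (60S) and 34 of the small (40S) subunit. Their levels were measured by RNA immunoprecipitation-sequencing (RIP-seq), in which an antibody pulls down a protein and the RNA that stays with it is sequenced. All 9 libraries came from the cytoplasmic fraction of cortex of newborn mice (postnatal day 0), whose genotype is given as heterozygous CELF2 p.R493H, a knock-in (KI) of an altered RNA-binding protein, so that the controls carry the allele as well. The 3 CELF2-KI RIP libraries used 10 µg of rabbit anti-CELF2 antibody for 3 h, the 3 IgG RIP libraries used normal rabbit IgG in the same way, and the 3 input libraries were an aliquot of the fraction kept before antibody was added. The antibody is not stated to tell the altered from the normal CELF2 protein, and the number of animals behind a library is not given in the sources used here.

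Each cytoplasmic ribosome holds a small subunit that reads the mRNA and a large subunit that joins amino acids, and their proteins are made in matched amounts. Most mRNAs of these proteins are short, abundant and stable, and begin with a C and a run of pyrimidines, the 5′ terminal oligopyrimidine (TOP) motif, through which mTOR signalling and the protein LARP1 set how much they are translated. In newborn cortex they are known from progenitors, neurons and glia alike, since every growing cell makes ribosomes. CELF2 belongs to the CELF family, which binds GU-rich stretches of RNA, mostly in introns and 3′ ends. The comparison of CELF2-KI RIP with both controls asks which cytoplasmic mRNAs come down with CELF2 beyond what beads and IgG bring down and beyond their level in the fraction.

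Start-site sequences are shown for some of the members described below, because the TOP motif sits at the first transcribed base. Each line gives 30 bases from RefSeq (GRCm38.p6) on the strand of the gene, 5′ to 3′, of which the last 15 are transcribed from the annotated start. Capitals mark a C directly followed by at least 4 pyrimidines that begins within 5 bases of that start, and a line with no capitals has no such run. The first 6 genes were called lower with the CELF2 antibody, against IgG and against input, *Rplp2* and *Rps27* by amounts near the median of the members over IgG RIP, and the last 4 were not.
Rplp0: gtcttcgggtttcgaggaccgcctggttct
Rplp2: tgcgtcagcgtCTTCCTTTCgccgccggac
Rps19: tccgaaatctcgcgagactcgacgcccgac
Rps28: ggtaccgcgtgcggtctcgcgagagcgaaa
Rps13: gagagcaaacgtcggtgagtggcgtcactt
Rps27: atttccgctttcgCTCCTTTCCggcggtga
Rps6: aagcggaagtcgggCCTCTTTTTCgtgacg
Rps15a: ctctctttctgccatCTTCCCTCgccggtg
Rpl15: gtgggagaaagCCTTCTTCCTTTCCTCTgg
Rpl22: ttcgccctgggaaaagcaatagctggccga
These windows lie at chr5:115559452-115559481 (+) for *Rplp0*, chr7:141447636-141447665 (+) for *Rplp2*, chr7:24884577-24884606 (+) for *Rps19*, chr17:33824548-33824577 (-) for *Rps28*, chr7:116334176-116334205 (-) for *Rps13*, chr3:90213634-90213663 (-) for *Rps27*, chr4:86857353-86857382 (-) for *Rps6*, chr7:118116133-118116162 (-) for *Rps15a*, chr14:18270972-18271001 (-) for *Rpl15* and chr4:152325711-152325740 (+) for *Rpl22*, which has another annotated start at chr4:152324421-152324450, also without the run. *Rps19* has other annotated starts at chr7:24884661-24884690 and chr7:24884898-24884927, both without it.

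Protein-coding counts per library were 13519246 to 16836302 in CELF2-KI RIP, 9344255 to 14960822 in IgG RIP and 55229664 to 78483566 in input, so input values carry the least counting error. The IgG RIP libraries stood apart in that 21.1% to 43.5% of their counts fell in transcripts with no matched gene, against 11.6% to 12.6% in CELF2-KI RIP and 9.27% to 9.78% in input, and 1 such transcript alone held 10.8% to 34.9% of the counts in IgG RIP. Levels are given as CPM, in which protein-coding counts are scaled to a common library size by edgeR's TMM, and are shares of a library and not amounts of RNA. Of the 88 genes, 85 passed the filter of 0.5 CPM in at least 3 libraries, among 15263 genes tested. The other 3, *Rpl10l*, *Rpl32l* and *Rpl39l*, had at most 27 counts in any library. A gene is called lower or higher where the Benjamini-Hochberg adjusted p of edgeR's quasi-likelihood test was under 0.01 and the change at least 2-fold. Fewer cells with a transcript and less of it per cell cannot be told apart in these bulk samples.

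Ribosomal protein mRNAs took up a small share of the CELF2-KI RIP and a larger one of each control. Together the 88 genes held 0.211%, 0.170% and 0.158% of protein-coding counts in the 3 CELF2-KI RIP libraries, 0.639%, 0.730% and 0.877% in the IgG RIP libraries, and 1.83%, 1.84% and 1.94% in input. The 3 conditions did not overlap. The means were 0.180% ± 0.028 (SD, n = 3), 0.749% ± 0.120 (SD, n = 3) and 1.87% ± 0.061 (SD, n = 3), so that the share was 10.4-fold lower in CELF2-KI RIP than in input and 4.16-fold lower than in IgG RIP, while IgG RIP itself was 2.50-fold below input. An exact permutation test of 3 against 3 libraries cannot go below a two-sided p of 0.1, so none is given for the share.

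**Figure D1:**
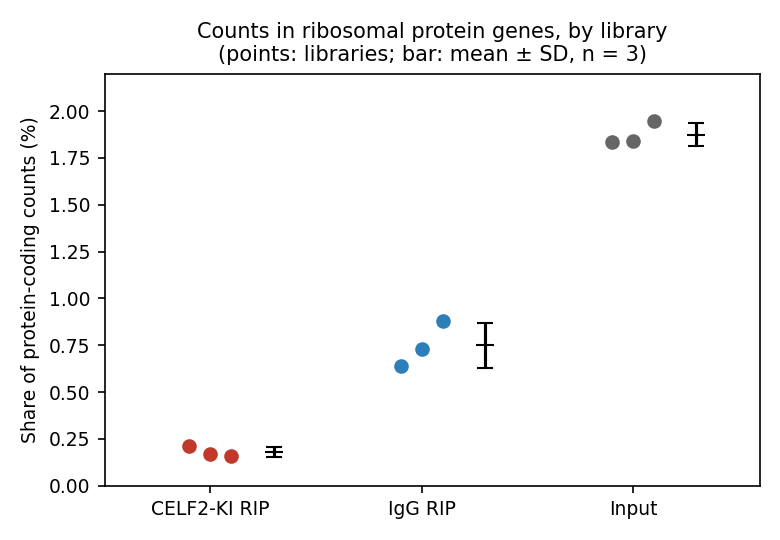
Share of protein-coding counts in the 88 ribosomal protein genes (percent, vertical axis) in each of the 9 libraries, by condition, with the mean ± SD of 3 libraries as a bar. The CELF2-KI RIP libraries lie between 0.158% and 0.211%, below every IgG RIP library (0.639% to 0.877%), and the input libraries lie highest (1.83% to 1.94%).

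In CELF2-KI RIP over IgG RIP, 72 of the 85 tested genes were lower, 2 were higher (*Rpl22* and *Rpl15*) and 11 were not called. Of all tested genes, 13.5% were lower and 13.4% higher in the same comparison. The median log2 fold change of the members was -2.10, with quartiles of -2.39 and -1.79, and that of all tested genes was -0.06. In CELF2-KI RIP over input, 75 were lower, 1 was higher (*Rpl15*) and 9 were not called, against 15.5% lower and 14.6% higher among all tested genes. The median there was -3.48, with quartiles of -4.01 and -2.50, against 0.19 for all tested genes. Lower than both controls were 72 members (9.52% of all tested genes), and in 76 members all 3 CELF2-KI RIP libraries lay below all 6 controls (19.9% of all tested genes). At the same adjusted p with no limit on size, 74 were lower and 3 higher than IgG RIP (19.2% and 22.9% of all tested genes), and 76 were lower and 2 higher than input (20.1% and 26.8%). The comparisons share the CELF2-KI RIP libraries and are therefore not independent of each other.

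**Figure D2:**
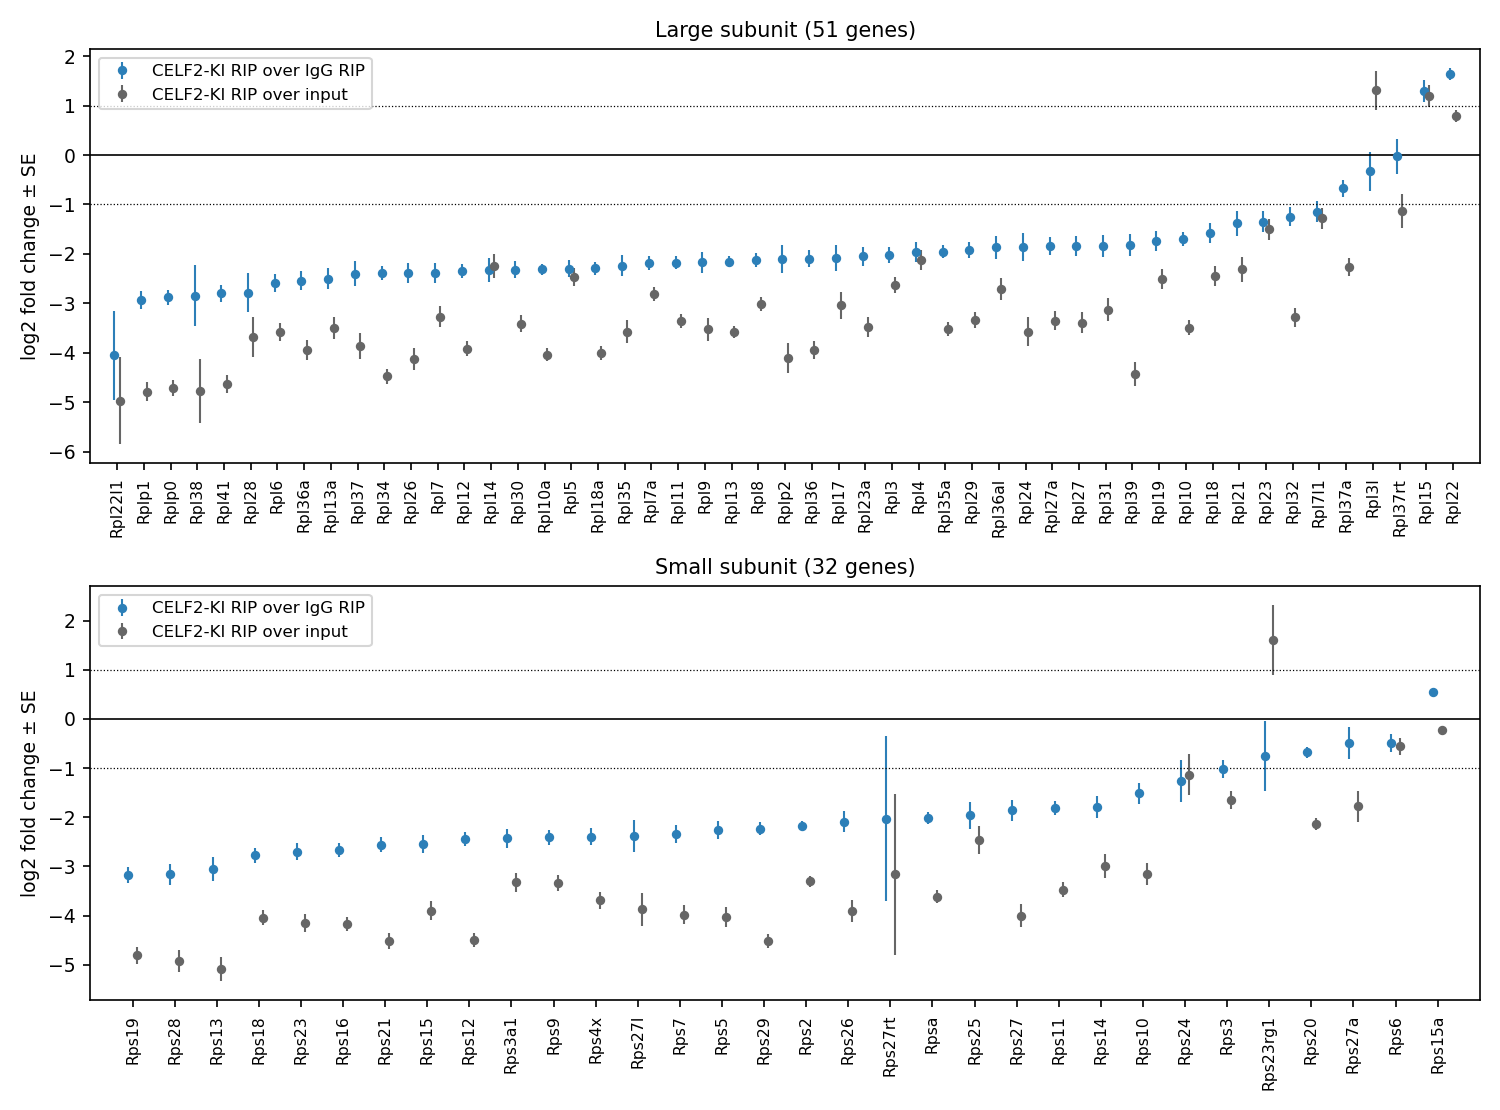
log2 fold change ± SE (vertical axis, from edgeR) of CELF2-KI RIP over IgG RIP and over input, for the 51 tested large-subunit genes (top) and 32 of the 34 tested small-subunit genes (bottom), ordered by the change over IgG RIP. Dotted lines mark a 2-fold change. Most genes lie below -1 in both comparisons, and *Rpl15* and *Rpl22* lie above 0 in both.

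The 3 proteins of the P stalk, which recruits elongation factors to the large subunit, were among the lower genes. *Rplp0*, the base of the stalk, was at 30.2, 29.9 and 23.3 CPM with the CELF2 antibody, 173, 213 and 227 CPM with IgG and 709, 689 and 804 CPM in input, given for replicates 1, 2 and 3 of each condition as for every gene below. Its CELF2-KI RIP libraries lay far below the lowest IgG RIP library, and the input libraries lay highest. It was 7.35-fold lower than in IgG RIP (log2 fold change -2.88 ± 0.15 (SE), adjusted p = 3.90e-06) and 26.4-fold lower than in input (log2 fold change -4.72 ± 0.16 (SE), adjusted p = 7.48e-08). *Rplp1* was at 10.003, 11.01 and 7.95 CPM with the CELF2 antibody, 58.8, 83.6 and 79.9 CPM with IgG and 278, 283 and 240.0 CPM in input. *Rplp2*, with which it pairs, was at 6.32, 6.55 and 3.75 CPM with the CELF2 antibody, 15.2, 26.6 and 29.97 CPM with IgG and 102, 107 and 79.1 CPM in input. Both stepped up from CELF2-KI RIP through IgG RIP to input with no overlap. The log2 fold change over IgG RIP was -2.94 ± 0.18 (SE), adjusted p = 5.50e-06 for *Rplp1* and -2.10 ± 0.29 (SE), adjusted p = 1.67e-04 for *Rplp2*.

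*Rpsa*, the laminin receptor-related protein of the small subunit, was at 64.98, 55.4 and 51.3 CPM with the CELF2 antibody, 207, 255 and 233 CPM with IgG and 699.9, 680.4 and 724 CPM in input. It was 4.05-fold lower in CELF2-KI RIP than in IgG RIP (log2 fold change -2.02 ± 0.12 (SE), adjusted p = 5.50e-06) and 12.2-fold lower than in input. *Rpl10*, which joins the large subunit late and is needed for the subunits to meet, was at 32.7, 27.4 and 24.02 CPM with the CELF2 antibody, 83.1, 87.4 and 101 CPM with IgG and 314, 290.1 and 345 CPM in input. The conditions of both genes were again stepwise and did not overlap, and *Rpl10* was 3.22-fold lower than in IgG RIP (log2 fold change -1.69 ± 0.14 (SE), adjusted p = 1.20e-05) and 11.3-fold lower than in input. Across all members, 66 followed this order of CELF2-KI RIP below IgG RIP below input without overlap, as did 8.63% of all tested genes.

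The lowest values over IgG RIP among members with more than a few counts were those of 3 small-subunit genes. *Rps19*, whose human counterpart is a Diamond-Blackfan anaemia gene, was at 8.40, 5.62 and 7.14 CPM with the CELF2 antibody, 54.8, 68.01 and 67.97 CPM with IgG and 199, 195 and 197 CPM in input. *Rps28*, a small protein at the mRNA exit, was at 0.800, 1.16 and 0.714 CPM with the CELF2 antibody, 7.20, 8.23 and 8.75 CPM with IgG and 26.9, 29.97 and 25.2 CPM in input. *Rps13* was at 5.76, 4.24 and 3.21 CPM with the CELF2 antibody, 30.7, 33.7 and 45.7 CPM with IgG and 148, 129 and 174 CPM in input. In all 3 genes every CELF2-KI RIP library was below every IgG RIP library by several-fold. They were 9.01-fold, 8.95-fold and 8.30-fold lower than in IgG RIP (log2 fold changes -3.17 ± 0.16 (SE), adjusted p = 3.90e-06 for *Rps19*, -3.16 ± 0.22 (SE), adjusted p = 7.74e-06 for *Rps28* and -3.05 ± 0.24 (SE), adjusted p = 9.98e-06 for *Rps13*). *Rps13* was also the lowest member over input, 33.99-fold lower (log2 fold change -5.09 ± 0.25 (SE), adjusted p = 4.15e-07). Next over IgG RIP came *Rplp1* and *Rplp0* of the P stalk (above) and *Rpl38* (log2 fold change -2.84), and *Rpl41*, a very short large-subunit protein (log2 fold change -2.80), and *Rps18* (log2 fold change -2.77) were also low.

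Some calls depended on single libraries. *Rpl38*, a large-subunit protein known from *Hox* mRNA translation, was at 0.880, 1.001 and 7.68 CPM with the CELF2 antibody, 17.96, 21.2 and 27.7 CPM with IgG and 65.4, 85.5 and 103 CPM in input. One CELF2-KI RIP library stood above the other 2 and still below the IgG RIP libraries, the log2 fold change over IgG RIP was -2.84 ± 0.62 (SE), adjusted p = 0.003, and without CELF2-KI RIP replicate 2 its call was lost (log2 fold change -2.39). Of its 4 transcript rows, 1 held 87.5% of its counts in IgG RIP. Another held 62.0% in CELF2-KI RIP, all in replicate 3, and how reads were divided among the rows was not tested. *Rps3*, a small-subunit protein at the mRNA entry, was at 98.7, 81.5 and 70.6 CPM with the CELF2 antibody, 129, 161 and 218 CPM with IgG and 259.8, 274 and 253 CPM in input, close to the 2-fold limit (log2 fold change -1.02 ± 0.19 (SE), adjusted p = 0.0011). Its call over IgG RIP was lost without CELF2-KI RIP replicate 3 and without IgG RIP replicate 3, where the log2 fold change reached -0.80.

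The members that went against the rest were few, and *Rpl22* had the highest value over IgG RIP. *Rpl22*, a large-subunit protein that cells can live without and that also binds RNA outside the ribosome, was at 212, 219 and 211 CPM with the CELF2 antibody, 61.3, 68.8 and 75.7 CPM with IgG and 115, 118 and 139 CPM in input. Each of its CELF2-KI RIP libraries exceeded every control, and IgG RIP lay below input. It was 3.12-fold higher than in IgG RIP (log2 fold change 1.64 ± 0.12 (SE), adjusted p = 8.13e-06) and 1.72-fold the input level, under the 2-fold limit (log2 fold change 0.79 ± 0.12 (SE), adjusted p = 2.20e-04). Of its 5 transcript rows, the same one held 87.3% of its counts in CELF2-KI RIP, 78.5% in IgG RIP and 91.1% in input.

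*Rpl15*, a large-subunit protein needed to process the precursor of large-subunit rRNA, was at 104, 124 and 89.99 CPM with the CELF2 antibody, 31.5, 40.6 and 57.6 CPM with IgG and 47.6, 51.97 and 39.1 CPM in input. Its CELF2-KI RIP libraries were above all controls, while IgG RIP and input overlapped. It was 2.45-fold higher than in IgG RIP (log2 fold change 1.29 ± 0.22 (SE), adjusted p = 6.46e-04) and 2.29-fold higher than in input (log2 fold change 1.20 ± 0.22 (SE), adjusted p = 8.43e-04), and it was the 1 member higher than both (7.58% of all tested genes were). *Rpl15* and *Rpl22* were also the 2 members whose CELF2-KI RIP libraries each exceeded all 6 controls, which held for 25.2% of all tested genes. When libraries were scaled by total counts in place of TMM, *Rpl15* kept its direction and was not called over IgG RIP, where it fell under the 2-fold limit (log2 fold change 0.92), or over input (log2 fold change 0.73, adjusted p = 0.013). With only the 6 libraries compared it was also just under that limit over input (log2 fold change 0.97).

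Some members lay between these and the rest. *Rps15a* was at 118, 118 and 114 CPM with the CELF2 antibody, 78.1, 79.7 and 83.03 CPM with IgG and 136, 143 and 133 CPM in input. The CELF2-KI RIP libraries were above IgG RIP and below input with no overlap, by less than 2-fold each way (log2 fold change over IgG RIP 0.54 ± 0.09 (SE), adjusted p = 6.16e-04, over input -0.23 ± 0.09 (SE), adjusted p = 0.045). *Rps20* was at 38.01, 40.1 and 32.1 CPM with the CELF2 antibody, 59.1, 58.7 and 59.1 CPM with IgG and 159, 158 and 168 CPM in input. *Rpl37a*, a zinc-binding protein of the large subunit, was at 45.2, 47.4 and 29.6 CPM with the CELF2 antibody, 55.1, 67.7 and 72.7 CPM with IgG and 196, 198 and 196 CPM in input. Both were below IgG RIP in every CELF2-KI RIP library but by less than 2-fold (log2 fold changes -0.68 ± 0.11 (SE), adjusted p = 4.71e-04 for *Rps20* and -0.67 ± 0.18 (SE), adjusted p = 0.008 for *Rpl37a*), and both were called lower than input (log2 fold changes -2.14 and -2.27).

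*Rps6*, the small-subunit protein that S6 kinases phosphorylate downstream of mTOR, was at 9.76, 9.09 and 6.96 CPM with the CELF2 antibody, 11.6, 11.6 and 12.9 CPM with IgG and 14.6, 12.3 and 11.2 CPM in input. CELF2-KI RIP was the lowest condition without overlap, yet the differences were under 2-fold (log2 fold change over IgG RIP -0.48 ± 0.18 (SE), adjusted p = 0.042, over input -0.56 ± 0.18 (SE), adjusted p = 0.019). *Rps27a*, made as a fusion with ubiquitin, was at 9.04, 8.78 and 6.16 CPM with the CELF2 antibody, 8.82, 7.34 and 17.6 CPM with IgG and 23.8, 23.8 and 34.8 CPM in input. Its CELF2-KI RIP and IgG RIP libraries overlapped (log2 fold change -0.50 ± 0.33 (SE), adjusted p = 0.22) and it was called lower than input (log2 fold change -1.78 ± 0.32 (SE), adjusted p = 8.61e-04). *Rps24* was at 8.72, 10.6 and 3.93 CPM with the CELF2 antibody, 11.6, 30.2 and 14.4 CPM with IgG and 15.3, 12.96 and 22.7 CPM in input, and passed in neither comparison (log2 fold change over IgG RIP -1.26 ± 0.43 (SE), adjusted p = 0.029, over input -1.13 ± 0.42 (SE), adjusted p = 0.039). It was called lower than IgG RIP with total-count scaling and by DESeq2's Wald test (log2 fold changes -1.64 and -1.33), and lower than input under both and with only the 6 libraries compared (log2 fold changes -1.60, -1.27 and -1.36). Genes of this family have many near-identical copies in the genome, and a pseudoaligner divides reads that fit several copies among them, so the value of any member that shares reads with a copy is uncertain, and how far this bears on the values here was not tested. Rows of 9 pseudogenes of the family, *Rps4l* included, held 0.563% to 1.66% as many counts as the members, and copies without a row here are not seen.

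**Figure D3:**
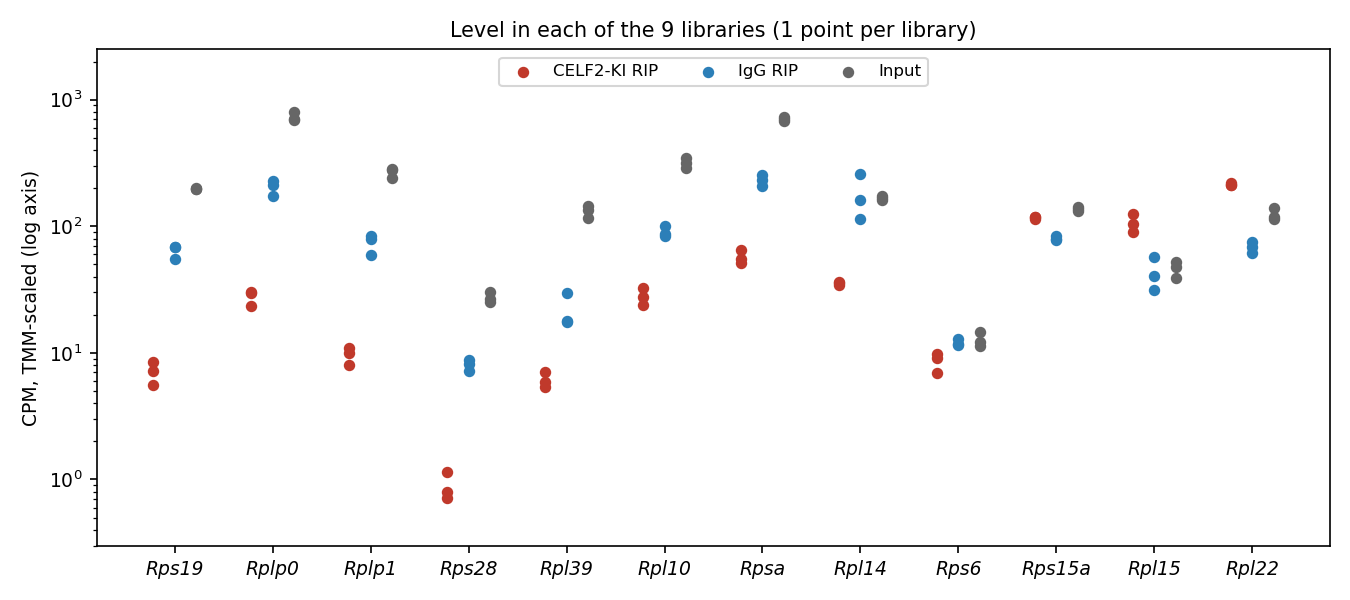
Level of 12 ribosomal protein genes in each of the 9 libraries (CPM, TMM-scaled, log axis), with 1 point per library and the 3 conditions side by side. *Rps19*, *Rplp0* and the genes beside them step up from CELF2-KI RIP to IgG RIP to input, *Rps6* differs by less than 2-fold, and *Rpl15* and *Rpl22* are highest in CELF2-KI RIP.

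The IgG RIP also held a smaller share of these mRNAs than input did. In IgG RIP over input, 53 of the 85 members were lower, 1 was higher (*Rpl3l*) and 31 were not called, with 5.01% lower and 6.79% higher among all tested genes. With no limit on size, 62 were lower and 1 higher (11.2% and 12% of all tested genes). The median log2 fold change was -1.36, with quartiles of -1.71 and -0.89, against -0.003 for all tested genes. The lowest was *Rpl39*, a small protein of the exit tunnel, at 7.12, 5.93 and 5.36 CPM with the CELF2 antibody, 17.6, 17.7 and 29.7 CPM with IgG and 116, 135 and 146 CPM in input. It was 6.08-fold below input in IgG RIP (log2 fold change -2.60 ± 0.22 (SE), adjusted p = 7.20e-05) and a further 3.53-fold lower in CELF2-KI RIP. *Rps29* (log2 fold change -2.28 ± 0.12 (SE), adjusted p = 1.87e-05) and *Rps27* (log2 fold change -2.15 ± 0.21 (SE), adjusted p = 1.45e-04) were also among the lowest.

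*Rps29* was at 8.40, 7.09 and 7.14 CPM with the CELF2 antibody, 31.4, 36.6 and 38.6 CPM with IgG and 165, 174 and 179.6 CPM in input. *Rps27* was at 13.7, 9.63 and 9.46 CPM with the CELF2 antibody, 33.8, 36.2 and 49.04 CPM with IgG and 156, 153 and 218 CPM in input. Both small-subunit genes had IgG RIP close to midway between CELF2-KI RIP and input on the log scale, and in CELF2-KI RIP over IgG RIP their log2 fold changes were -2.23 ± 0.13 (SE), adjusted p = 5.50e-06 and -1.86 ± 0.22 (SE), adjusted p = 6.51e-05. Other members were level in IgG RIP and input and lower in CELF2-KI RIP. *Rpl14* was at 36.2, 34.4 and 35.4 CPM with the CELF2 antibody, 115, 161 and 257 CPM with IgG and 172, 161 and 168 CPM in input, with the IgG RIP libraries on either side of input (log2 fold change relative to input 0.09 ± 0.23 (SE), adjusted p = 0.78). *Rpl4* and *Rpl5*, which carries 5S rRNA into the large subunit, had changes between IgG RIP and input, on the log2 scale, of -0.15 ± 0.19 (SE), adjusted p = 0.55 and -0.17 ± 0.17 (SE), adjusted p = 0.44. In CELF2-KI RIP these 3 genes were 5.02-fold, 3.91-fold and 4.92-fold lower than in IgG RIP.

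Large and small subunits had close medians. Among members outside the paralogs, the median log2 fold change over IgG RIP was -2.12 for the large subunit (47 genes) and -2.13 for the small subunit (32 genes). Over input the medians were -3.48 and -3.65, and for IgG RIP over input -1.40 and -1.46. The range within each subunit, from genes near -3 to genes above 0 over IgG RIP, was far wider than these gaps, and the sign of the gap over IgG RIP changed with the transcripts counted. Counts of the small subunit per count of the large subunit were 0.635 to 0.667 in CELF2-KI RIP, 0.584 to 0.627 in IgG RIP and 0.668 to 0.695 in input. These ratios were within a narrow band in all conditions, lowest in IgG RIP.

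The paralogs, genes that resemble a ribosomal protein and are often made in few tissues, were mostly low. *Rpl22l1*, which can take the place of *Rpl22*, was at 0, 0.231 and 0.446 CPM with the CELF2 antibody, 2.13, 5.16 and 3.94 CPM with IgG and 6.63, 12.3 and 2.05 CPM in input, from 0, 3 and 5 counts in CELF2-KI RIP. It had the lowest estimate over IgG RIP of all members and a wide error (log2 fold change -4.05 ± 0.90 (SE), adjusted p = 0.0033), and its call was lost without CELF2-KI RIP replicate 1, CELF2-KI RIP replicate 2 or IgG RIP replicate 2 (log2 fold changes -3.46, -4.09 and -3.75), whereas it was called lower than input in each fit that left out a library (log2 fold change -4.97 ± 0.88 (SE), adjusted p = 7.50e-04). Its direction was the opposite of that of *Rpl22*. *Rps27l*, a p53 target, was at 1.84, 0.924 and 0.625 CPM with the CELF2 antibody, 4.88, 7.14 and 5.88 CPM with IgG and 16.3, 17.4 and 16.6 CPM in input, and was lower than IgG RIP (log2 fold change -2.38 ± 0.33 (SE), adjusted p = 1.69e-04) and than input (log2 fold change -3.88 ± 0.33 (SE), adjusted p = 8.94e-06). *Rpl36al* was at 7.12, 4.31 and 4.82 CPM with the CELF2 antibody, 16.8, 17.8 and 24.7 CPM with IgG and 34.9, 31.9 and 39.9 CPM in input, and was likewise lower (log2 fold changes -1.87 ± 0.23 (SE), adjusted p = 8.21e-05 and -2.71). *Rpl7l1*, which works in assembly of the large subunit, was at 19.8, 11.2 and 12.2 CPM with the CELF2 antibody, 29.5, 29.6 and 36.6 CPM with IgG and 34.5, 33.6 and 36.8 CPM in input, with IgG RIP level with input. Its log2 fold change over IgG RIP was -1.15 ± 0.21 (SE), adjusted p = 0.0011, and -0.99 without CELF2-KI RIP replicate 2, just under the limit.

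*Rpl3l*, the muscle form of *Rpl3*, was at 1.28, 2.16 and 1.52 CPM with the CELF2 antibody, 2.75, 2.28 and 1.22 CPM with IgG and 0.668, 0.716 and 0.615 CPM in input, from 16 to 44 counts in the RIP libraries. *Rpl3l* had 100% of its counts in both RIPs, and 96.9% in input, in 1 of its 4 transcript rows, a predicted and not a curated transcript. In CELF2-KI RIP it had the highest estimate of the large-subunit genes over input and was not called (log2 fold change 1.31 ± 0.40 (SE), adjusted p = 0.017), but was called higher without IgG RIP replicate 3 (log2 fold change 1.31) and with only the 6 libraries of the comparison (log2 fold change 1.08). Its call above input in IgG RIP (log2 fold change 1.64 ± 0.40 (SE), adjusted p = 0.0091) was kept in 1 of 9 leave-one-out fits, the one without IgG RIP replicate 3. Retrocopies were scarce. *Rps23rg1* was at 0.320, 0.770 and 0.804 CPM with the CELF2 antibody, 0.438, 0.595 and 2.15 CPM with IgG and 0.191, 0.287 and 0.129 CPM in input. *Rpl37rt* was at 6.32, 5.31 and 6.70 CPM with the CELF2 antibody, 5.26, 7.73 and 5.81 CPM with IgG and 14.9, 18.7 and 6.50 CPM in input. *Rps27rt* was at 0, 0 and 1.52 CPM with the CELF2 antibody, 5.70, 0 and 0 CPM with IgG and 3.47, 7.78 and 1.76 CPM in input. None of the 3 was called in any comparison. *Rpl37rt* in CELF2-KI RIP was close to the threshold over input (log2 fold change -1.13 ± 0.35 (SE), adjusted p = 0.016), and was called lower with total-count scaling, DESeq2's size factors, no filter, DESeq2's Wald test, only the 6 libraries compared, or without input replicate 3 (log2 fold changes from -1.60 to -1.25). In IgG RIP it was called lower than input by DESeq2's Wald test (log2 fold change -1.17) and without input replicate 3 (log2 fold change -1.45). For *Rps27rt* 1 IgG RIP library held all the IgG RIP counts, and its sign turned without that library (log2 fold change 7.07), so no direction is given for it.

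Components of the ribosome outside the symbol rule were lower as well. *Fau*, made as a fusion with the small-subunit protein S30, was at 36.8, 32.04 and 35.98 CPM with the CELF2 antibody, 92.6, 109.8 and 144 CPM with IgG and 188, 181 and 192 CPM in input. *Rack1*, a scaffold on the small subunit, was at 58.02, 44.6 and 37.8 CPM with the CELF2 antibody, 115, 138 and 165 CPM with IgG and 359.7, 345 and 386 CPM in input. In both, CELF2-KI RIP was lowest and input highest without overlap, and both were called lower than both controls (log2 fold changes over IgG RIP -1.73 ± 0.16 (SE), adjusted p = 1.70e-05 for *Fau* and -1.58 ± 0.18 (SE), adjusted p = 4.83e-05 for *Rack1*).

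Of 19 other mRNAs known for a TOP motif, mostly translation factors, 10 were lower and 1 was higher than IgG RIP, with a median log2 fold change of -1.15, and 12 were lower and 0 higher than input, with a median of -2.18. *Nap1l1*, a histone chaperone, had the lowest value over IgG RIP (log2 fold change -2.85 ± 0.35 (SE), adjusted p = 8.83e-05) and *Hnrnpa1*, a splicing factor, the highest (log2 fold change 1.14 ± 0.12 (SE), adjusted p = 3.57e-05). The list thus leaned lower, with genes called at both ends. Over IgG RIP 52.6% were lower and 5.26% higher, against 13.5% and 13.4% of all tested genes. Over input 63.2% were lower, against 15.5% of all tested genes, of which 14.6% were higher. Of 28 genes of ribosome biogenesis, 9 were lower and 0 higher than IgG RIP (median log2 fold change -0.61), and 8 were lower and 0 higher than input (median -0.45). The lower shares were 32.1% and 28.6%, against 13.5% and 15.5% of all tested genes. *Nop10*, part of the H/ACA particles that modify rRNA, was lowest over IgG RIP (log2 fold change -2.37 ± 0.29 (SE), adjusted p = 7.84e-05), and *Rrn3*, a factor for RNA polymerase I, highest (log2 fold change 0.90 ± 0.12 (SE), adjusted p = 1.47e-04, under 2-fold).

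Of 9 regulators of ribosomal protein mRNA translation, 1 was lower (11.1%, against 13.5% of all tested genes) and 0 were higher than IgG RIP, with a median log2 fold change of -0.34. Relative to input 1 was lower and 1 was higher (*Larp4b*, an RNA-binding protein of the LARP family, log2 fold change 1.02 ± 0.16 (SE), adjusted p = 4.04e-04), with a median of 0.64. That was 11.1% each way, near the 15.5% lower and 14.6% higher of all tested genes. The one lower than IgG RIP was *Rps6kb2*, an S6 kinase, at 0, 0 and 0 CPM with the CELF2 antibody, 1.63, 1.09 and 4.45 CPM with IgG and 2.24, 1.60 and 1.49 CPM in input. It had 0 counts in every CELF2-KI RIP library. With a floor of 3 counts per library it was at least 9.70-fold below the IgG RIP mean. Replicate 3 carried most of that mean, so the bound is smaller against the other IgG RIP libraries. *Larp4* had the highest value over IgG RIP (log2 fold change 0.78 ± 0.15 (SE), adjusted p = 0.0017). Of 78 mitochondrial ribosomal proteins, which serve a ribosome of bacterial descent, 31 were lower and 1 was higher than IgG RIP, with a median of -0.93, and 46 were lower and 0 higher than input, with a median of -1.60. *Mrpl10* was highest over IgG RIP (log2 fold change 1.46 ± 0.14 (SE), adjusted p = 2.06e-05), and *Mrps34* was lowest among those called (log2 fold change -2.44 ± 0.18 (SE), adjusted p = 8.54e-06). *Mrpl58* had a lower estimate but was not called (adjusted p = 0.056). It was at 0, 0 and 0 CPM with the CELF2 antibody, 2.32, 0 and 0 CPM with IgG and 1.67, 1.72 and 2.59 CPM in input. As 1 IgG RIP library held all its IgG RIP counts, no direction over IgG RIP is given for it. The cytoplasmic members thus had lower medians than the mitochondrial list in both comparisons, a description without a test.

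**Figure D4:**
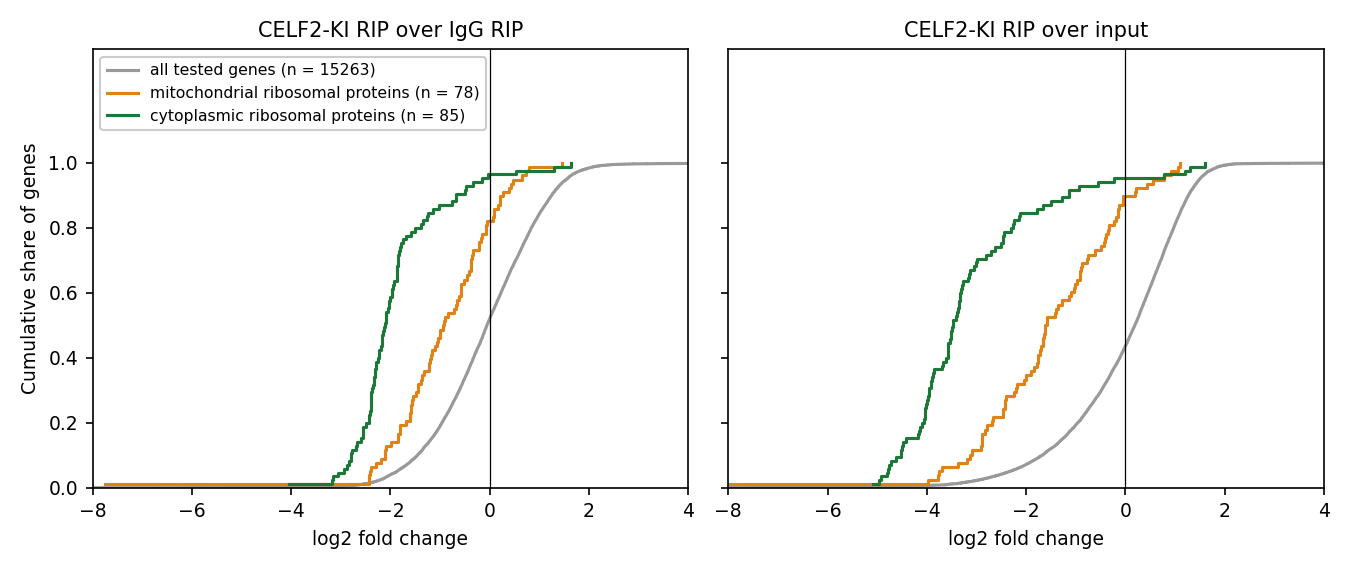
Cumulative share of genes (vertical axis) by log2 fold change (horizontal axis) in CELF2-KI RIP over IgG RIP (left) and over input (right), for 85 cytoplasmic ribosomal protein genes, 78 mitochondrial ribosomal protein genes and all 15263 tested genes. The medians are -2.10, -0.93 and -0.06 on the left and -3.48, -1.60 and 0.19 on the right. Values below -8 lie outside the axis.

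Members were mostly abundant mRNAs of short genes. Of the members, 53 were in the top 20% of tested genes by mean CPM and 83 spanned at most 10 kb of genome (median span 3183 bases, against 24590 for all tested genes). The 344 other genes with both features had a median of 0.36 on the log2 scale relative to IgG RIP and 0.18 relative to input. The 3599 other genes spanning at most 10 kb had medians of -0.45 and -0.43, and the 1509 other genes of the top 10% by mean CPM had medians of 0.62 and 0.76. Mean CPM was taken over all 9 libraries, so genes high in CELF2-KI RIP entered the sets chosen by it more easily. The medians of those sets therefore cannot show how abundance alone goes with the change. Among 79 members outside the paralogs, the log2 fold change rose with span with a Spearman's rho of 0.34 over IgG RIP and 0.46 over input. This is a description across genes, which share their libraries and are not replicates, and mRNA length was not used here.

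The pyrimidine run was found at the start sites of part of the members. A start region was on hand for 68 members, and 32 of them (47.1%) had the pyrimidine run described above, against 23.6% of 12153 tested genes. With the run at the annotated start itself there were 15 members (22.1%), against 2.90% of tested genes. The run was looked for on the strand of the gene only, and a run is a match of letters and no proof of a TOP mRNA. Tested members with the run (31 genes) had a median of -2.10 on the log2 scale relative to IgG RIP and those without it (34 genes) -2.24, and over input the medians were -3.50 and -3.57. Of the genes that went against the rest, *Rpl15* and *Rps15a* had the run and *Rpl22* did not, as the sequences above show.

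Markers of some cell types moved as well. Of all tested genes, 13.5% were lower and 13.4% higher than IgG RIP, so 1 call in a list of 4 or 5 genes says little. The 5 erythroid genes were all lower than IgG RIP, and their summed level was 92.7 to 95.0 CPM in CELF2-KI RIP, 366 to 584 CPM in IgG RIP and 877 to 1135 CPM in input, the same order as the ribosomal protein mRNAs. Of 5 radial glia genes 2 were lower than IgG RIP, with sums of 128 to 212, 336 to 407 and 486 to 537 CPM. The 2 were *Fabp7* and *Vim* (log2 fold changes -1.40 and -2.15), and *Vim* is also in the list of other TOP mRNAs. *Sox2*, *Pax6* and *Hes5* were not called over IgG RIP (log2 fold changes -0.70, 0.16 and -0.09). Of 7 excitatory neuron genes 4 were higher, with sums of 1672 to 2280, 894 to 1041 and 971 to 1136 CPM. The other lists held 5 genes of inhibitory neurons (1 higher than IgG RIP), 4 of astrocytes (1 higher), 4 of oligodendrocyte precursors (0 called), 4 of endothelium (1 lower) and 4 tested of microglia (1 lower, 1 higher), with *P2ry12* not tested. Neuronal markers were thus present in every library of this cortical fraction. The part of these cell types in the values of the ribosomal protein mRNAs was not tested.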

How the data were processed

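RNA of 9 libraries was measured, with 3 per condition. The authors depleted rRNA, made directional libraries, checked reads with FastQC 0.11.9, trimmed them with fastp 0.23.4, removed rRNA reads with Ribodetector 0.3.1 and ran kallisto 0.51.1. They deposited estimated counts, 1 row per transcript, without normalization. Their methods name an Ensembl transcriptome, the labels name mm10, and the rows carry RefSeq accessions. All 9 columns were used.

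Rows were joined to RefSeq gene names (GRCm38.p6) by accession, and 86714 of 107384 rows matched (80.8%). Counts were summed per gene and rounded. *Rps4l*, annotated as a transcribed pseudogene, was left out of the members. Protein-coding genes reaching 0.5 CPM in 3 libraries or more were fitted with edgeR 4.0.16 (TMM, quasi-likelihood, a mean per condition) in R 4.3.3, with DESeq2 1.42.0 and limma 3.58.1 on hand for alternatives. Tables and figures used Python 3.11.15, pandas 2.3.3 and matplotlib 3.10.9. A call needed a Benjamini-Hochberg adjusted p under 0.01 together with an estimate of 2-fold or more. Genes with at most 3 counts in every library of a condition were treated as at the floor there. The members, the gene lists and the tests were chosen with earlier results of these data known. Named genes were those defining the P stalk and *Rpsa*, *Rps6*, *Rpl10* and *Rps27a*, the 4 highest and 4 lowest members of each comparison, tested paralogs, members called against the list median, and the highest and lowest gene of each list. Other genes are named as examples, chosen after their values were seen. A few genes that were tested and counted are not reported here by name.

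Replicates are called biological by the authors, and how many animals they stand for is not given in the sources used here. The spread within each condition exceeded sampling noise (chi-square of 11.9 to 44.1 per gene). Deviations of same-numbered libraries from their condition's mean were correlated over 15263 genes. The r was 0.110, 0.117 and 0.123 for the CELF2 and input libraries. It was -0.056, 0.043 and 0.014 for the CELF2 and IgG libraries, and 0.030, 0.065 and 0.038 for the IgG and input libraries. These genes share their libraries, so they do not count as replicates. Only same-numbered libraries were compared, so whether a number marks a shared sample was not tested. Tested on simulated data with 15263 genes, the fit called 48 of 50 genes lowered 4-fold and 37 of 50 lowered 2.8-fold in CELF2-KI RIP over IgG RIP. Reads carry no molecular identifiers, so errors cover the spread of these libraries only.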

Additional observations from a re-analysis of the deposited data

How the results depend on the processing

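The lower calls in CELF2-KI RIP kept their count within 1.5 times under every alternative run, over IgG RIP and over input. Leaving out each library in turn gave 69 to 72 lower and 2 higher members over IgG RIP, 75 to 76 lower and 1 to 2 higher over input, and 50 to 63 lower and 0 to 1 higher in IgG RIP over input. At an adjusted p under 0.01 with no limit on size, those ranges were 72 to 74 and 3, 75 to 76 and 2 to 3, and 55 to 70 and 0 to 1. The medians ranged from -2.21 to -1.99, -3.61 to -3.39 and -1.49 to -1.30. The gap between large and small subunits ranged from -0.045 to 0.091, 0.147 to 0.270 and 0.023 to 0.159, with reported values of 0.013, 0.176 and 0.052. The member share ranged from 0.164% to 0.191%, 0.684% to 0.804% and 1.84% to 1.89%.

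Scaling by total counts shifted the median log2 fold change of all tested genes from -0.06 to -0.42 relative to IgG RIP and from 0.19 to -0.27 relative to input. The member medians were then -2.47 and -3.94, 1 member was higher over IgG RIP, and 0 were higher over input with or without the size limit. A test against a 2-fold change (glmTreat) gave 1 higher over IgG RIP, 0 higher over input, and 19 lower in IgG RIP over input. The 1 member higher in IgG RIP over input became 0 under scaling by total counts, DESeq2's size factors, no filter, curated transcripts only, the replicate block, only 6 libraries and glmTreat. With curated transcripts only the subunit gap was -0.050 relative to IgG RIP and 0.073 relative to input, and the shares were 0.232%, 0.996% and 2.29%. With all transcripts in the denominator the share was 0.152% in CELF2-KI RIP, 0.458% in IgG RIP (0.332% to 0.650%) and 1.46% in input. The fold between the RIPs was then smaller than with protein-coding counts. With only the 6 libraries compared the gap over input was 0.21. The 1 member higher over input in that fit was *Rpl3l* (1.08) and no longer *Rpl15* (0.97). Leaving the retrocopies *Rpl37rt*, *Rpl32l* and *Rps23rg1* out of the subunit medians, an alternative chosen after seeing the data, gave gaps of 0.037, 0.207 and 0.050.

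With the replicate block, 75 members were lower and 1 higher over input (median -3.46, gap 0.21), 72 lower and 2 higher over IgG RIP, and 52 lower in IgG RIP over input. The block changed no call of a named member in CELF2-KI RIP over input.

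Signs turned only for members whose reported value was not called. In IgG RIP over input these were *Rpl14* (-0.0091 with total counts, -0.28 to 0.33 with a library left out), *Rpl15* (0.020 with curated transcripts, -0.36 to 0.097 with a library left out), *Rps6* (0.048 with curated transcripts, -0.17 to 0.019 with a library left out) and *Rps24* (-0.40 to 0.39 with a library left out). Over IgG RIP these were *Rpl37rt* (0.00058 with the block, -0.15 to 0.15 with a library left out), *Rps27rt* (-9.12 to 7.07, where a condition was left with no counts) and *Rps23rg1* (-1.16 to 0.31). The cause was not tested. Over all settings of named members, 1304 values stayed on their side, 37 were weaker and 17 stronger.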
